A study of Mus musculus with 20 samples.

Results

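The 9 genes described here encode proteins that make, branch, break down or bind glycogen: Gys1, Gys2, Ugp2, Gbe1, Pygl, Phka2, Ppp1r3b, Ppp1r3c and Stbd1. They were taken by gene symbol from a list of 9 symbols, and each was found once among 15608 genes in the liver count table and once among 20738 genes in the adipose count table. The study sequenced messenger RNA from the liver and the epididymal white fat (eWAT, a depot that adjoins the epididymis) of male mice aged 2 months. Its title places the work on endocytosis of the insulin receptor through MAD2, a spindle checkpoint protein. Mice of the IR 4A genotype carry an insulin receptor whose MAD2-binding motif has been changed, and WT mice are the controls. Each genotype gave 5 liver and 5 eWAT libraries, which makes 4 groups. Strain, zygosity, feeding state and any agent given are not stated in the sources used here. The change lies in the protein sequence, so the amount of receptor messenger RNA does not check the genotype labels. Libraries carry a replicate number but no animal, so every p-value measures the spread between these libraries, which may in part be technical.

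Glycogen is the branched glucose polymer in which liver stores glucose for release to the blood, while muscle and fat cells keep it for their own use. Glucose is activated to UDP-glucose, added to the growing chain by glycogen synthase and branched by the branching enzyme. Glycogen phosphorylase releases glucose units from the ends of the chains. Insulin favours synthesis largely through dephosphorylation of the synthase and the phosphorylase by protein phosphatase 1, which glycogen-targeting subunits hold at the particle.

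Depth was 17989420 to 24238359 estimated counts in liver libraries and 13651874 to 21615358 in those of eWAT. Levels are TMM-scaled CPM, a gene's counts relative to the scaled total of its library. Hepatocyte markers summed to 56895 to 72907 CPM in liver, with none of the 6 at 0. Libraries stood apart in each tissue. Acute phase genes of the liver, which inflammation induces, summed to 33189 CPM in WT 1 and 18033 CPM in WT 3, against 1522 to 3777 CPM in the other 8 liver libraries. In eWAT the 6 adipocyte markers were all detected, but their sum ran from 1562 CPM in IR 4A 3 to 17030 CPM in WT 4. Epididymis markers reached 4711 to 22922 CPM in eWAT, sperm markers passed 1000 CPM in WT 1, WT 2, IR 4A 3 and IR 4A 4, and hepatocyte markers reached 360 and 234 CPM in WT 4 and IR 4A 4. None of the 6 sperm or 6 epididymis markers was in the liver table.

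The tissues used different isozymes. Liver contained almost only Gys2, the liver form of glycogen synthase, and eWAT almost only Gys1, the form of muscle and most other tissues. Per kilobase of the longest coding transcript, Gys2 made up 99.2% ± 0.593 (SD, n = 5) of the summed synthase level in WT liver and 99.4% ± 0.130 in IR 4A liver. In eWAT it made up 5.09% ± 2.39 in WT and 4.40% ± 3.53 in IR 4A. The synthase shares of the tissues did not overlap, and within a tissue the genotypes overlapped. In whole tissue, fewer cells of a type and less RNA per cell cannot be told apart. The part of epididymis and sperm RNA in the eWAT levels and shares was not tested.

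Of the 9 genes, 7 differed between WT eWAT and WT liver by edgeR's quasi-likelihood test at a Benjamini-Hochberg adjusted p under 0.05, in a comparison in which 77.1% of 14696 genes did. Gys1 was 18.6-fold higher in eWAT than in liver (log2 difference 4.22, SE 0.32, edgeR adjusted p = 5.66e-10), as were 43.2% of all genes at some size. The other 6 were lower in eWAT, as were 33.9% of all genes. Gys2 was 141-fold lower (log2 difference -7.14, SE 0.72, edgeR adjusted p = 3.14e-08). Stbd1, a protein that tethers glycogen to membranes, was 18.8-fold lower, and Ppp1r3b, the targeting subunit GL that is abundant in liver, was 11.4-fold lower. Ugp2, the UDP-glucose pyrophosphorylase, was 7.21-fold lower, Pygl, the liver glycogen phosphorylase, 6.26-fold lower, and Gbe1, the branching enzyme, 4.05-fold lower. Phka2, a regulatory alpha subunit of phosphorylase kinase, had a log2 difference of 0.34 (95% interval -0.16 to 0.83, edgeR adjusted p = 0.202). Ppp1r3c, the targeting subunit PTG, had one of -0.48 (interval -1.41 to 0.44, edgeR adjusted p = 0.324). Upper-quartile scaling moved the median of all genes in this comparison by 0.27 on the log2 scale and left the sign of all 9 differences as it was, while Phka2 then passed (0.61, edgeR adjusted p = 0.0221). Ppp1r3c passed without eWAT WT 4 (-1.03, edgeR adjusted p = 0.0366) and with limma voom (-0.76, adjusted p = 0.0451). This test scaled both tissues jointly, and Ppp1r3c then averaged 17.8 CPM in WT eWAT and 24.9 CPM in WT liver. With each tissue scaled on its own the means were 27.3 and 15.1 CPM, but those scales are not shared between tissues. Such means cannot give the direction of the difference, which was negative in all 28 settings fitted across tissues (-1.03 to -0.21).

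Per length, Pygl, Gys2 and Ugp2 were the most abundant members in WT liver. They stood at 98.8 ± 29.4, 88.6 ± 35.7 and 87.1 ± 38.8 CPM per kilobase (SD, n = 5). Their ranges overlapped, and no order of the 3 held in every library. Stbd1 followed at 34.4 ± 6.61, Gbe1 at 23.9 ± 5.31 and Ppp1r3b at 19.4 ± 6.88 CPM per kilobase, with overlapping ranges between neighbours. Within each WT liver library Stbd1 was above Gbe1 per length. Ppp1r3c, at 5.55 ± 2.11, and Phka2, at 3.90 ± 0.659 CPM per kilobase, also overlapped each other, and Gys1 was last at 0.551 ± 0.130. The same 3 genes led in IR 4A liver, with Gys2 at 130 ± 8.16, Pygl at 116 ± 7.09 and Ugp2 at 116 ± 14.1 CPM per kilobase. In WT eWAT the order began with Pygl (39.6 ± 11.4), Ugp2 (30.2 ± 3.23) and Gys1 (25.9 ± 11.1), whose ranges overlapped, and ended with Gys2 at 1.57 ± 1.41 CPM per kilobase. With this length Pygl was above Gys1 within each WT eWAT library. In IR 4A eWAT it began with Pygl, Ugp2 and Gys1 again, at 32.5 ± 11.5, 26.5 ± 7.16 and 20.6 ± 7.84 CPM per kilobase. The order of close neighbours depended on the length used: with the median coding transcript Gys2 stood first and Pygl second in WT liver.

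**Figure D1:**
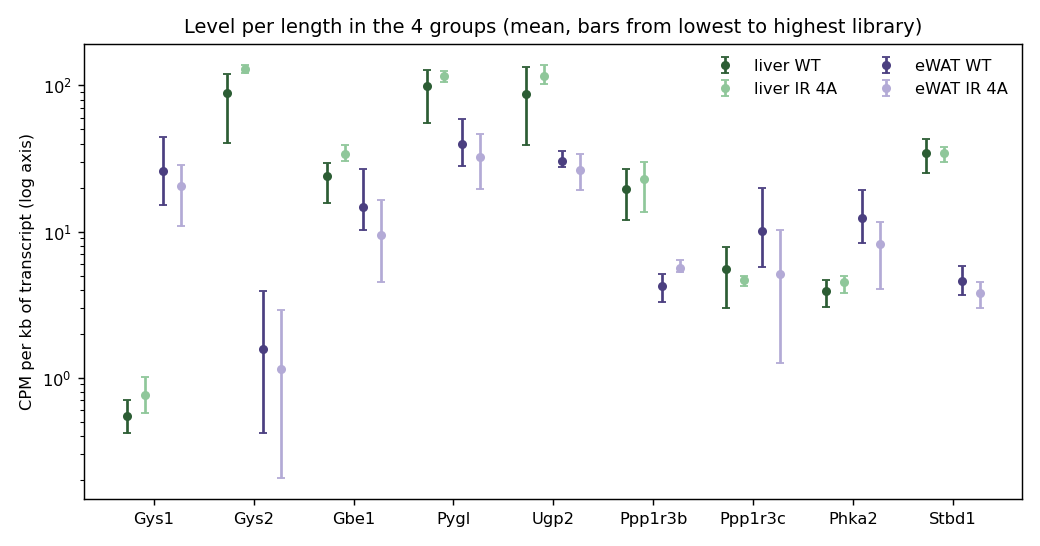
Level of each gene per kilobase of its longest coding transcript (CPM per kilobase, log axis) in the 4 groups. Each tissue was scaled on its own, so distances between tissues differ from those of the test with joint scaling. Gys2 is among the 3 highest genes in liver and the lowest in eWAT, and Gys1 is the lowest in liver at 0.551 CPM per kilobase in WT and among the 3 highest in eWAT at 25.9.

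Start-site sequences are shown for Gys1, Gbe1, Pygl, Phka2 and Ppp1r3c because these 5 genes were all highest in eWAT WT 4 and lowest in eWAT IR 4A 3, a choice made after their values were seen. The windows are the 250 bases before the RefSeq gene start on GRCm38.p6: Gys1 at chr7:45434589-45434838 (plus strand), Gbe1 at chr16:70313699-70313948 (plus), Pygl at chr12:70227684-70227933 (minus), Phka2 at chrX:160501912-160502161 (plus) and Ppp1r3c at chr19:36736605-36736854 (minus). Each is written 5′ to 3′ along the gene's strand, with capitals on matches to any of 5 motifs.
Gys1: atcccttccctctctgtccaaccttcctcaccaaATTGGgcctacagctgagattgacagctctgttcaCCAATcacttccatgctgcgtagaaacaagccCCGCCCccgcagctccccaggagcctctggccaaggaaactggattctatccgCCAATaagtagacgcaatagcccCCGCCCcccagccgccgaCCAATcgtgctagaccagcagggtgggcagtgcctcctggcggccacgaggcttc
Gbe1: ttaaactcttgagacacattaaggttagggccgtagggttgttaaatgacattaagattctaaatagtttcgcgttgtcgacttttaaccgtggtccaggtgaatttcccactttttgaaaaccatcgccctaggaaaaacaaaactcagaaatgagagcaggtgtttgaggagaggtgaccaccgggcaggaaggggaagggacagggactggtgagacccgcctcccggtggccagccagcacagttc
Pygl: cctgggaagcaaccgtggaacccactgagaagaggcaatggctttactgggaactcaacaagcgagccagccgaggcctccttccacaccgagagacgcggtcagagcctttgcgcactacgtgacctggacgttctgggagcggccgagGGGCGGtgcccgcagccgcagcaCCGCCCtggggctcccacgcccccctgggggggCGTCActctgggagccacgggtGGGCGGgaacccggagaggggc
Phka2: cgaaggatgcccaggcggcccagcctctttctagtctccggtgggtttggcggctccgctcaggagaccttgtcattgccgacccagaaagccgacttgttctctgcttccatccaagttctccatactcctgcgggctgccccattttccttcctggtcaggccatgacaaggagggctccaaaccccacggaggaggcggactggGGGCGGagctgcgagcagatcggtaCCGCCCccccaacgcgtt
Ppp1r3c: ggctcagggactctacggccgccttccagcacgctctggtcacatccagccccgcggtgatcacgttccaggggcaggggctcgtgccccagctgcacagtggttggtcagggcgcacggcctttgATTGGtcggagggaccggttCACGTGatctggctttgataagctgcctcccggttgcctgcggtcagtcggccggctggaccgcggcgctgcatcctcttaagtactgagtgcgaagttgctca
The motifs, searched on both strands with no overlap between different motifs, were the E-box CACGTG, the core TGACG of the cyclic AMP response element, the CCAAT box, the FoxO core GTAAACA and the GC box GGGCGG. Gys1 held 4 CCAAT boxes and 2 GC boxes, and Pygl held 1 cyclic AMP core and 3 GC boxes. Ppp1r3c held 1 E-box and 1 CCAAT box, Phka2 held 2 GC boxes, and the Gbe1 window held no match to the 5 motifs. Among 32851 windows of the same length over all genes, 33.8% held a CCAAT box, 32.7% a GC box, 17.8% the cyclic AMP core and 6.02% the E-box, so most of these matches are common ones. The FoxO core, found in 3.17% of all windows, was in none of the 8 windows that RefSeq gave for 7 of the 9 genes. A match describes letters only. Windows for Gys2 and Ppp1r3b were not in the table used here.

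In liver, messenger RNA of several glycogen genes stood higher in IR 4A than in WT, but no member passed the test. Fold differences were 1.47 for Gys2, 1.41 for Gbe1, 1.38 for Gys1 and 1.33 for Ugp2, and smaller for the others. By edgeR's quasi-likelihood test none of the 9 had a Benjamini-Hochberg adjusted p under 0.05, in a comparison in which 0.00805% of 12421 genes did. Limma voom also called none of the 9, where it called 0.0322% of all genes, and DESeq2 called 1, Gbe1, and 3.63% of all genes. At an unadjusted p under 0.05, 2 of the 9 were higher and none lower, where 8.6% of all genes were higher and 9.48% lower. Of the 9 log2 differences, 8 were positive, with a median of 0.24, where 51% of all genes were positive and the median was 0.00.

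Gys2 in the 5 WT liver libraries was 107, 284, 162, 316 and 307 CPM. In the 5 IR 4A libraries it was 326, 321, 365, 368 and 345 CPM. All 5 IR 4A libraries stood above all 5 WT libraries, and the WT libraries spread far more, with WT 1 and WT 3 lowest. The mean was 345 ± 21.7 CPM in IR 4A against 235 ± 94.8 in WT (SD, n = 5), a log2 difference of 0.55 (95% interval 0.01 to 1.09, edgeR unadjusted p = 0.0465, adjusted p = 0.269). The difference fell to 0.37 without WT 1 (edgeR adjusted p = 0.359) and to 0.19 without both WT 1 and WT 3 (edgeR adjusted p = 0.369). WT 1 and WT 3 were the 2 libraries high in acute phase genes. Groups that did not overlap in the direction of IR 4A above WT were found for 1.68% of all genes and for 2 members, Gys2 and Gbe1, though with upper-quartile scaling Gys2 overlapped.

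Gbe1 was 51.5, 90.1, 78.8, 97.4 and 76.2 CPM in WT liver and 110, 112, 101, 105 and 129 CPM in IR 4A liver. The lowest IR 4A library was above the highest WT library. With a mean of 111 ± 10.7 CPM against 78.8 ± 17.5 (SD, n = 5), the log2 difference was 0.50 (interval 0.19 to 0.82), the smallest p among the 9 (edgeR unadjusted p = 0.00465, adjusted p = 0.148). It was 0.38 without WT 1 (edgeR adjusted p = 0.18) and 0.34 without both WT 1 and WT 3 (edgeR adjusted p = 0.252), and the groups still did not overlap. DESeq2 placed Gbe1 past the threshold (log2 difference 0.50, adjusted p = 0.0423), where 3.63% of all genes passed. The authors' deposited table gives it a log2 fold change of 0.47 (SE 0.16) and an adjusted p of 0.0806, where 2.5% of its genes pass.

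Ugp2 was 104, 307, 156, 357 and 245 CPM in WT liver and 304, 273, 327, 286 and 369 CPM in IR 4A liver. The WT libraries spread on both sides of most IR 4A libraries, and WT 1 and WT 3 were again lowest. The log2 difference of 0.42 (SE 0.27, edgeR adjusted p = 0.433) was 0.23 without WT 1 and 0.04 without both. Gys1, the minor synthase of liver, was at 1.54 to 2.58 in WT and 2.10 to 3.74 CPM in IR 4A, with overlap (log2 difference 0.47, SE 0.22, edgeR adjusted p = 0.291). Unlike Gys2, Gys1 had a larger difference without the libraries high in acute phase genes: 0.57 without WT 1 and 0.73 without both (edgeR adjusted p = 0.291), when its groups no longer overlapped and 3.95% of all genes were separated in that direction. Only 25 to 88 counts per library stood behind Gys1 in liver.

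Pygl, on the breakdown side, was 165, 349, 249, 383 and 332 CPM in WT liver and 347, 343, 374, 318 and 361 CPM in IR 4A liver. WT 1 and WT 3 lay below all other libraries, and WT 4 was the highest of the 10. The log2 difference of 0.24 (SE 0.19, edgeR adjusted p = 0.522) fell to 0.09 without WT 1 and turned to -0.03 without both. Phka2, whose subunit receives the signal from cyclic AMP through protein kinase A, was at 13.2 to 20.2 in WT and 16.5 to 21.6 CPM in IR 4A (log2 difference 0.21, SE 0.12, edgeR adjusted p = 0.376). The level of Gys2 divided by that of Pygl in the same library, which cancels the scaling between libraries, was 0.645 to 0.924 in WT liver and 0.937 to 1.16 in IR 4A liver. These ratios did not overlap between the genotypes, while those of Gbe1 to Pygl (0.229 to 0.316 in WT, 0.270 to 0.358 in IR 4A) and of Gys1 to Pygl (0.00403 to 0.0156 in WT, 0.00605 to 0.0104 in IR 4A) did. WT 1 and WT 3 had the lowest ratios of Gys2 to Pygl, 0.645 and 0.652. The ratios are a description chosen after values were seen, with no share over other gene pairs beside them.

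The targeting subunits did not separate by genotype in liver. Ppp1r3b was 52.9, 117, 96.6, 53.5 and 106 in WT and 99.3, 131, 59.4, 83.7 and 128 CPM in IR 4A, a spread of over 2-fold within each genotype (log2 difference 0.23, SE 0.26, edgeR adjusted p = 0.674). That difference was 0.10 without WT 1 and 0.37 without WT 2. Ppp1r3c was the one member with a negative value in liver, -0.25 (SE 0.22, edgeR adjusted p = 0.57), at 8.12 to 21.3 in WT and 11.6 to 13.6 CPM in IR 4A. The IR 4A range of Ppp1r3c lay wholly inside the WT range, and its difference was -0.27 without WT 1, -0.11 without either WT 2 or WT 3 and -0.41 without WT 5. Stbd1 was at 50.2 to 84.9 in WT and 59.5 to 75.0 CPM in IR 4A, with a log2 difference of 0.01 (interval -0.26 to 0.28, edgeR adjusted p = 0.983). Stbd1 was at 0.032 without WT 1 and at -0.086 without WT 5, and Phka2 was at 0.17 without WT 1.

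**Figure D2:**
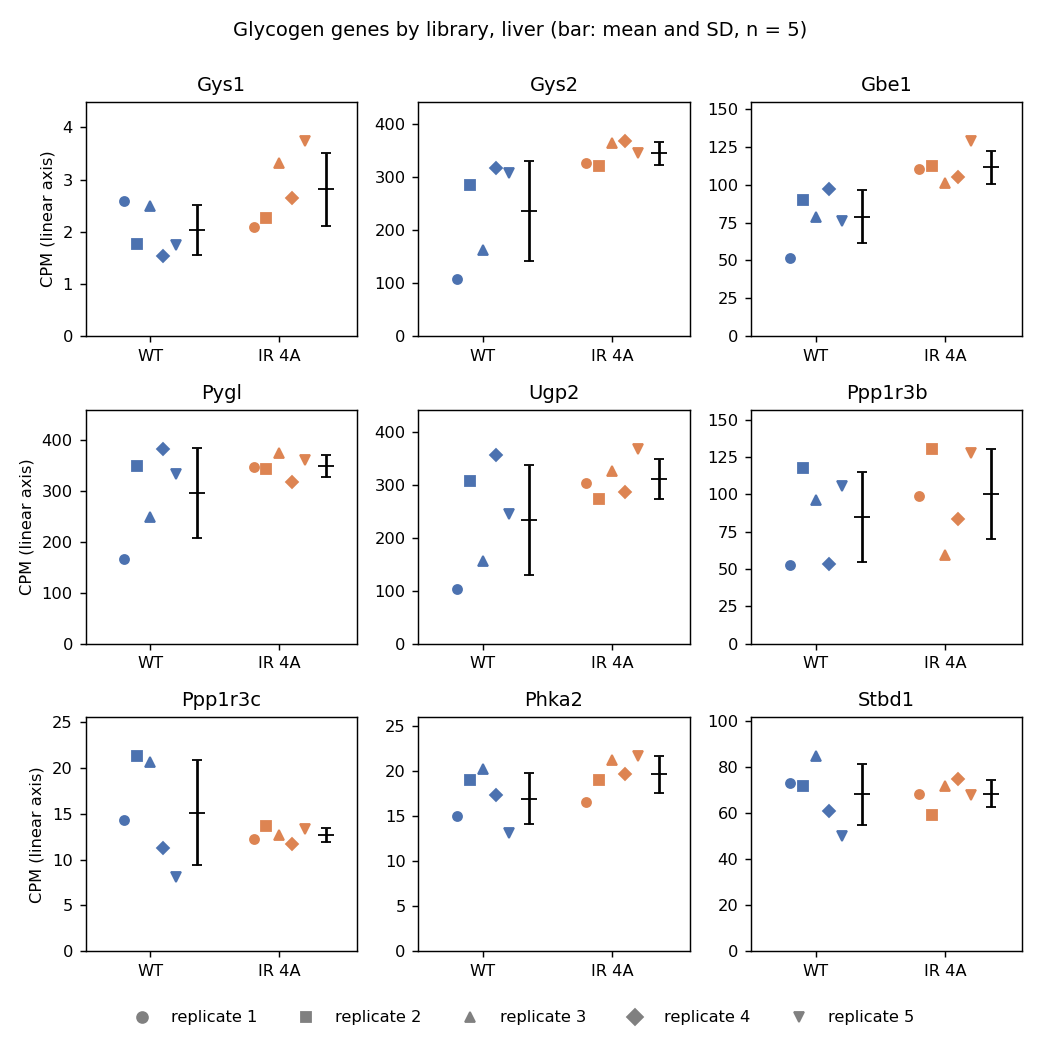
Level of each of the 9 genes in every liver library (CPM, linear axis from 0, one panel per gene), with the mean and SD of 5 libraries as bars. Gys2 and Gbe1 are the panels in which all IR 4A points lie above all WT points, and WT replicate 1 is the lowest point for 5 of the 9 genes.

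WT 1 was the lowest of the 10 liver libraries for 5 members, Gys2, Gbe1, Pygl, Ugp2 and Ppp1r3b. Not all members were low there: Stbd1 at 73.0 CPM and Gys1 at 2.58 CPM in WT 1 were within the range of the others. The ratio of the highest to the lowest liver library ran from 1.64 for Phka2 to 3.54 for Ugp2. With the acute phase level as a covariate, a choice made after seeing the data, the log2 difference was 0.15 for Gys2 (edgeR adjusted p = 0.713) and 0.29 for Gbe1 (edgeR adjusted p = 0.462). In the same fit Ugp2 was at -0.05, Pygl at -0.07 and Gys1 at 0.60.

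In eWAT most of the 9 genes stood lower in IR 4A, and Ppp1r3b higher, again with no member past the test. Values for IR 4A relative to WT were a 1.96-fold lower mean for Ppp1r3c, 1.56-fold lower for Gbe1, 1.51-fold lower for Phka2 and 1.32-fold higher for Ppp1r3b. None of the 9 had a Benjamini-Hochberg adjusted p under 0.05 by edgeR's quasi-likelihood test, and 0.0121% of 16476 genes did. Limma voom called none of the 9 and 0.473% of all genes, and DESeq2 called 1, Ppp1r3b, and 7.31% of all genes. At an unadjusted p under 0.05, 1 of the 9 was higher and none lower, where 6.63% of all genes were higher and 9.24% lower with TMM scaling. With upper-quartile scaling, 1681 genes were higher and 1076 lower at that p, against 1092 and 1523 with TMM, while the sign of all 9 members held. Of the 9 log2 differences, 8 were negative, with a median of -0.33, where the median of all genes was -0.08 and 40.1% were positive.

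Ppp1r3b was 18.7, 15.9, 22.4, 14.5 and 22.2 CPM in WT eWAT. In IR 4A eWAT it was 25.9, 23.1, 23.7, 23.2 and 28.0 CPM. All IR 4A libraries were above all WT libraries, and it was the one member whose groups did not overlap; 2.52% of all genes were separated in that direction and 3.22% in the other. The mean was 24.8 ± 2.11 CPM against 18.7 ± 3.58 (SD, n = 5), a log2 difference of 0.40 (interval 0.09 to 0.71, edgeR unadjusted p = 0.0167, adjusted p = 0.242). DESeq2 gave 0.41 with an adjusted p of 0.0383, where 7.31% of all genes passed. In the authors' deposited table the log2 fold change is 0.43 (SE 0.15) with an adjusted p of 0.0975, where 2.7% of its genes pass. WT 4, the library with the most adipocyte marker RNA, was the lowest of the 10 for Ppp1r3b and the highest for the other 8 members.

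Ppp1r3c, the other targeting subunit, was 15.7, 24.9, 25.3, 53.8 and 16.6 CPM in WT eWAT and 20.1, 13.6, 3.45, 4.74 and 27.9 CPM in IR 4A eWAT. IR 4A 3 and IR 4A 4 were far below the rest and WT 4 far above. The groups overlapped because IR 4A 1 and IR 4A 5 lay among or above the other WT libraries. The log2 difference of -0.97 (SE 0.59, edgeR adjusted p = 0.441) was -0.56 without WT 4. The level of Ppp1r3b divided by that of Ppp1r3c in the same library was 0.270 to 1.34 in WT and 1.00 to 6.88 in IR 4A, with overlap.

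Gys1, the main synthase of eWAT, was 71.4, 55.9, 90.5, 162 and 96.3 in WT and 105, 83.1, 40.3, 50.9 and 99.4 CPM in IR 4A. WT 4 was highest and IR 4A 3 and IR 4A 4 lowest, with the other libraries mixed (log2 difference -0.33, SE 0.34, edgeR adjusted p = 0.665). Without WT 4 the difference was -0.05. Gys2 was at 1.12 to 10.5 in WT and 0.546 to 7.74 CPM in IR 4A, resting on 8 to 208 counts per library (log2 difference -0.45, interval -2.37 to 1.47, edgeR adjusted p = 0.799), and was 0.24 without WT 4. WT 4 and IR 4A 4, with hepatocyte marker sums of 360 and 234 CPM, had Gys2 at 10.5 and 1.08 CPM, and Gys2 was 7.74 CPM in IR 4A 1, where those markers summed to 5.73 CPM. The part of hepatocyte RNA in the Gys2 level of eWAT was not tested.

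Gbe1 was 33.9, 33.7, 47.9, 88.7 and 40.3 CPM in WT eWAT and 53.9, 31.3, 14.96, 15.9 and 40.5 CPM in IR 4A eWAT. The order of the extreme libraries was that of Gys1 (log2 difference -0.64, SE 0.41, edgeR adjusted p = 0.465), and without WT 4 the value was -0.31. Pygl ran from 84.5 to 176 in WT and from 58.9 to 139 CPM in IR 4A (log2 difference -0.28, SE 0.27, edgeR adjusted p = 0.634), and was -0.09 without WT 4. Phka2 ran from 36.3 to 84.0 in WT and from 17.4 to 50.8 CPM in IR 4A (log2 difference -0.59, SE 0.32, edgeR adjusted p = 0.386), and was -0.37 without WT 4.

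Ugp2 spread least among the enzymes in WT eWAT, at 74.2 to 95.8 CPM, and was 51.2 to 90.6 CPM in IR 4A (log2 difference -0.19, SE 0.18, edgeR adjusted p = 0.635). Stbd1 was at 7.34 to 11.6 in WT and 5.94 to 8.95 CPM in IR 4A (log2 difference -0.28, SE 0.18, edgeR adjusted p = 0.456), and was -0.17 without WT 4. Both overlapped between genotypes.

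**Figure D3:**
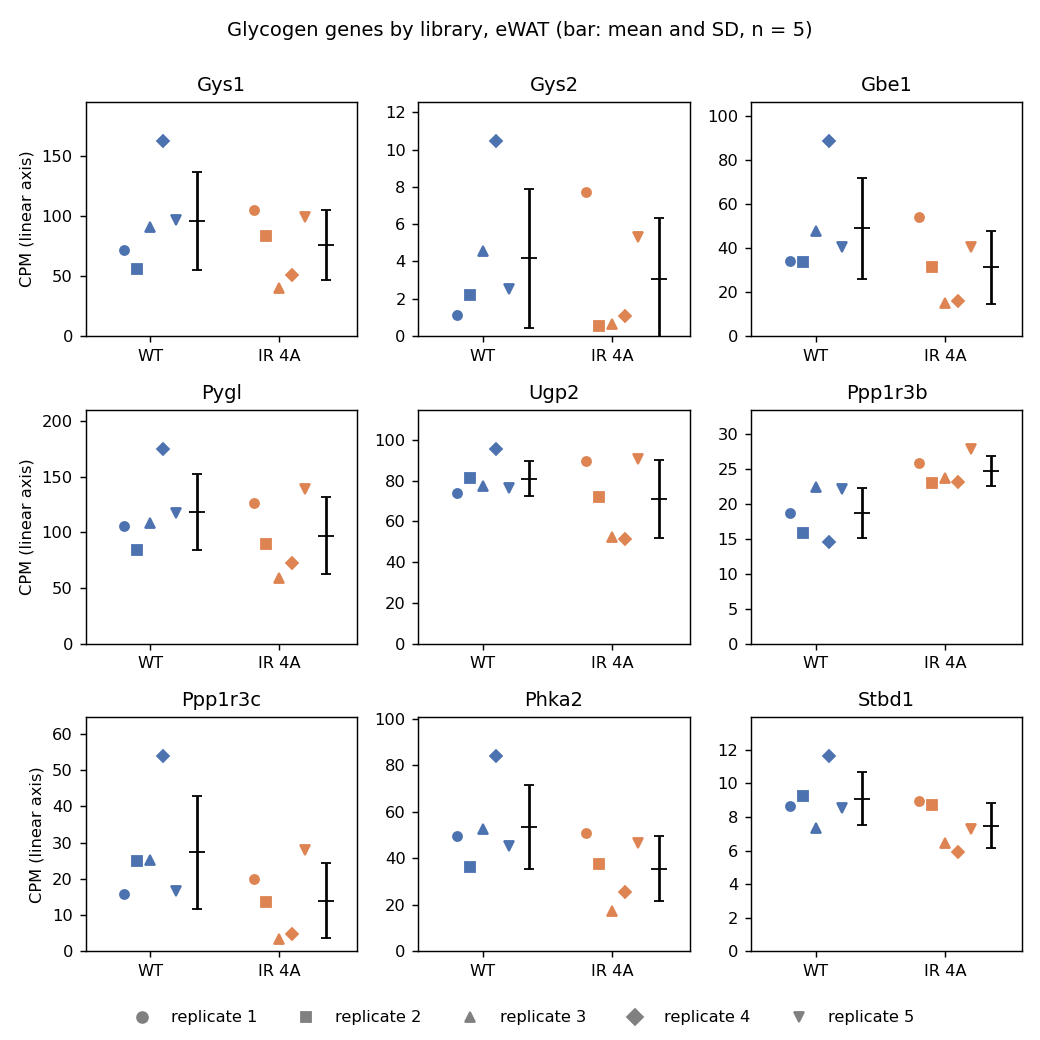
Level of each of the 9 genes in every eWAT library (CPM, linear axis from 0, one panel per gene), with the mean and SD of 5 libraries as bars; for Gys2 the SD of IR 4A reaches below the axis. Ppp1r3b is the panel in which all IR 4A points lie above all WT points, and WT replicate 4 is the highest point in the other 8 panels.

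Marker levels also differed between eWAT libraries. Summed adipocyte markers were 5222 to 17030 in WT and 1562 to 9111 CPM in IR 4A, with IR 4A 3 and IR 4A 4 lowest. Macrophage markers (256 to 776 in WT, 77.8 to 197 CPM in IR 4A) and fibroblast and matrix markers (2525 to 6667 in WT, 616 to 1933 CPM in IR 4A) did not overlap between genotypes. Epididymis markers summed to between 4711 and 16094 CPM in WT and between 15770 and 22922 CPM in IR 4A, with overlapping groups, and were lowest in WT 4, the library in which Ppp1r3b was also lowest. Macrophage marker sums had at most 1 of 6 markers at 0, and no epididymis or matrix marker was at 0. Single genes of the macrophage and matrix lists did not all follow their sums. The fibroblast marker Pdgfra had a log2 difference of -0.02 (edgeR unadjusted p = 0.88). Its groups overlapped, as did those of Col1a1 (-1.24) and Cd68 (-0.74). The other tested genes of these lists were lower in IR 4A without overlap, where 3.22% of all genes were separated in that direction. The part of macrophage, matrix and epididymis markers in the differences of the glycogen genes was not tested. With the adipocyte marker level as a covariate, added after the data were seen, Gys1 stood at 0.28 (edgeR adjusted p = 0.193), Pygl at 0.17, Gbe1 at 0.03 and Phka2 at -0.05 on the log2 scale, and Ppp1r3b at 0.43 (edgeR adjusted p = 0.145). In that fit 25.2% of all genes had an unadjusted p under 0.05 and 0.0425% an adjusted p under 0.05. Without the 2 libraries high in hepatocyte markers, WT 4 and IR 4A 4, Ppp1r3b was at 0.35, Gbe1 at -0.15 and Gys1 at 0.06.

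**Figure D4:**
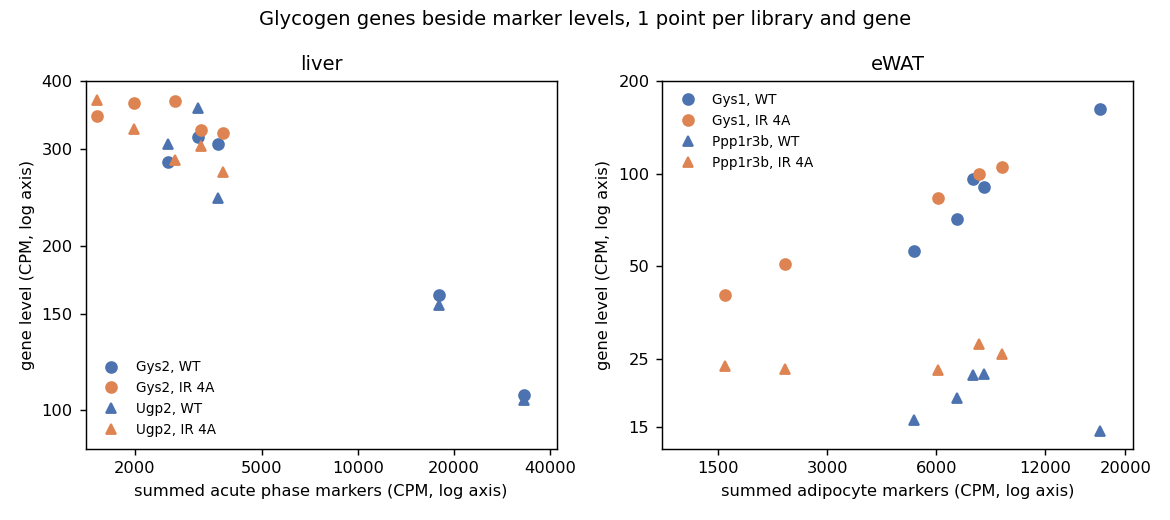
Level of 2 glycogen genes (CPM, log axis) against summed marker level (CPM, log axis), 1 point per library and gene: Gys2 and Ugp2 against acute phase markers in liver, Gys1 and Ppp1r3b against adipocyte markers in eWAT. The 2 liver WT libraries with acute phase markers of 18033 and 33189 CPM have the lowest Gys2 and Ugp2, and in eWAT Gys1 is lowest in the 2 libraries with the least adipocyte marker RNA while Ppp1r3b stays between 14.5 and 28.0 CPM.

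A model of all 20 libraries asked whether the effect of genotype was the same in the 2 tissues. None of the 9 genes passed with edgeR, where 2.41% of 14696 genes did, with DESeq2, where 8.66% did, or with limma voom, where 4.27% did. At an unadjusted edgeR p under 0.05, 2 of the 9 were lower and none higher, where 14.6% of all genes were lower and 7.51% higher. Gbe1, with a positive value in liver and a negative one in eWAT, came closest, at -1.17 for eWAT minus liver (interval -2.07 to -0.27, edgeR unadjusted p = 0.0138, adjusted p = 0.125). Phka2 followed at -0.83 (interval -1.53 to -0.13, edgeR adjusted p = 0.156). Gys1 was at -0.82 (edgeR adjusted p = 0.258), Ugp2 at -0.63 (edgeR adjusted p = 0.293), Pygl at -0.54 (edgeR adjusted p = 0.352), Gys2 at -1.04 (edgeR adjusted p = 0.489) and Ppp1r3c at -0.74 (edgeR adjusted p = 0.519). Stbd1 had a value of -0.31 and Ppp1r3b, positive in both tissues, one of 0.15 (interval -0.54 to 0.84, edgeR adjusted p = 0.821). Without liver WT 1 and WT 3, Gbe1 stood at -1.01 (edgeR adjusted p = 0.259). Without eWAT WT 4 alone, Gbe1 was at -0.76, Phka2 at -0.53, Gys1 at -0.46, Ugp2 at -0.47, Pygl at -0.28, Gys2 at -0.28, Ppp1r3c at -0.26 and Stbd1 at -0.11, with Ppp1r3b at 0.16.

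**Figure D5:**
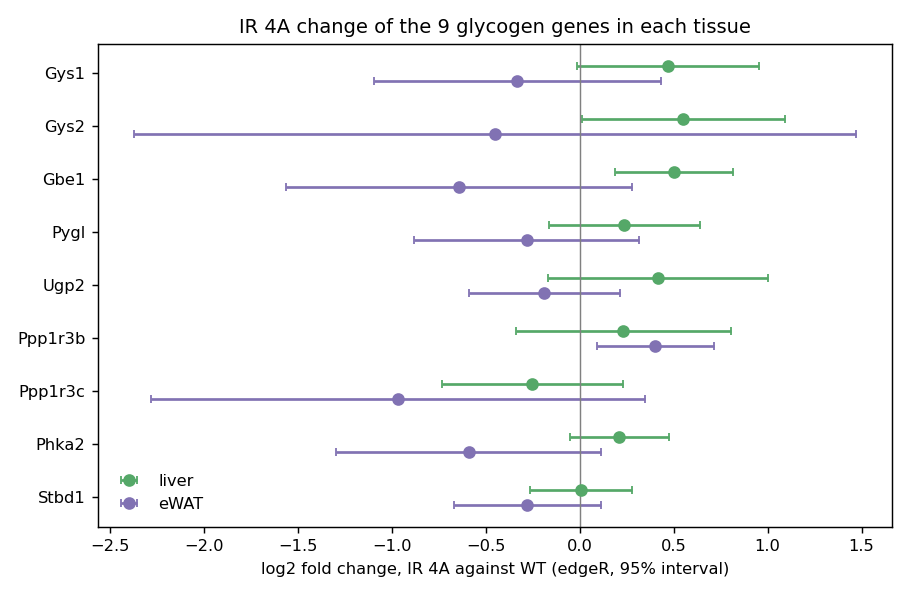
Log2 difference of IR 4A from WT for each of the 9 genes in liver and in eWAT, with 95% intervals from edgeR. The interval excludes 0 for Gys2 and Gbe1 in liver and for Ppp1r3b in eWAT, all before adjustment over all genes, and Gbe1 lies at 0.50 in liver and -0.64 in eWAT.

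Isozyme shares added detail to these levels. Liver phosphorylase was almost all Pygl, 99.3% ± 0.300 of the summed per-length level of Pygl, Pygm and Pygb in WT (SD, n = 5) and 99.3% ± 0.221 in IR 4A. In eWAT, Pygl held 45.9% ± 2.67 in WT and 47.3% ± 0.707 in IR 4A, and Pygb, the brain form, held 51.2% ± 3.33 and 49.8% ± 0.831. The part of epididymis RNA in these eWAT shares was not tested. The share of Phka2 in the alpha subunits Phka1 and Phka2 was 65.6% to 86.9% in WT eWAT and 49.5% to 70.3% in IR 4A eWAT, with overlap. Among the glycogen-targeting subunits, Ppp1r3b held 66.0% ± 3.55 of the per-length sum in WT liver and 70.4% ± 6.03 in IR 4A liver. In eWAT it held 19.9% ± 6.45 in WT and 29.5% ± 6.33 in IR 4A, while Ppp1r3c held 41.2% ± 10.4 and 23.0% ± 12.8. Ppp1r3e, a further targeting subunit, held 31.3% ± 4.44 in WT eWAT and 40.1% ± 6.68 in IR 4A eWAT, the largest mean share there. The shares of Ppp1r3b, Ppp1r3c and Ppp1r3e overlapped between genotypes in eWAT. The sum included Ppp1r3g in liver only and Ppp1r3a in eWAT only.

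Other genes of glycogen metabolism were on a list of 28 symbols, of which 26 were in each table, and they fell on both sides of 0. In liver 24 were tested and none passed at an adjusted p under 0.05 by edgeR with Benjamini-Hochberg adjustment, where 0.00805% of all genes did. At an unadjusted p under 0.05, 3 were higher and 2 lower, where 8.6% of all genes were higher and 9.48% lower. There were 11 positive and 13 negative values with a median log2 difference of -0.01, where 51% of all genes were positive and the median was 0.00. Phkg2, the liver catalytic subunit of phosphorylase kinase, was 15.2 ± 0.411 CPM in IR 4A against 19.3 ± 3.80 in WT (SD, n = 5, log2 difference -0.34, edgeR adjusted p = 0.175), and was the 1 gene of the list whose groups did not overlap, where 1.83% of all genes were separated in that direction. Pgm2l1, an enzyme that makes glucose bisphosphate, was at 0.76 (edgeR adjusted p = 0.173), the laforin gene Epm2a at 0.45 (edgeR adjusted p = 0.249) and Phka1 at -0.23 (edgeR adjusted p = 0.39). The minor phosphorylases Pygb and Pygm were at 0.40 and 0.71 and Gyg, the glycogenin that primes new chains, at 0.21, none past the threshold.

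In eWAT all 26 were tested and none passed, where 0.0121% of all genes did. There were 12 positive and 14 negative values with a median of -0.09, where 40.1% of all genes were positive and the median was -0.08. At an unadjusted p under 0.05, 1 was higher and 0 lower, where 6.63% of all genes were higher and 9.24% lower. The 1 higher gene was Gsk3a, a kinase that phosphorylates glycogen synthase. It was at 132 ± 4.81 CPM in IR 4A against 107 ± 14.4 in WT (SD, n = 5, log2 difference 0.30, edgeR adjusted p = 0.231). Ppp1ca, a catalytic subunit of protein phosphatase 1, was at 0.26, Phkg1 at -0.54, the muscle targeting subunit Ppp1r3a at -0.58 and Calm3 at -0.21, with adjusted p from edgeR of 0.371, 0.434, 0.464 and 0.507. Pygb, Pygm and Gyg were at -0.39, -0.28 and -0.13. Between the WT tissues, Gyg, Pygb and Pygm were higher in eWAT by 2.01, 5.21 and 2.71 on the log2 scale. All passed the adjusted threshold of edgeR, as did 43.2% of all genes in that direction.

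Genes that bring glucose 6-phosphate into or out of the pathway were on a list of 10 symbols, 9 of them in each table. None of the 8 tested in liver or the 7 tested in eWAT passed, and 2 were higher at an unadjusted p under 0.05 in each tissue, where 8.6% of all genes were higher in liver and 6.63% in eWAT. Slc37a4, the carrier of glucose 6-phosphate into the endoplasmic reticulum, was at 0.33 in liver (edgeR adjusted p = 0.264) and 0.42 in eWAT (edgeR adjusted p = 0.295). G6pc3, a widely expressed glucose 6-phosphatase, was at 0.38 in eWAT (edgeR adjusted p = 0.248).

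The genes whose pattern over libraries was most like a synthase were found by the SD, over the 10 libraries of a tissue, of the difference in log2 CPM. For Gys2 in liver, among 6837 genes with a mean of at least 10 CPM over the 10 libraries, they were Papss2 (SD 0.15), Mettl7a1 (SD 0.16) and Spred1 (SD 0.17). Ugp2 ranked 5, Pygl 31 and Gbe1 91 by that measure, and Ppp1r3c ranked 6415. For Gys1 in eWAT, among 11059 genes by the same minimum, they were Adamtsl4 (SD 0.07), Bcat2 (SD 0.08) and Rab3d (SD 0.08), with Pygl at rank 115, Phka2 at 251, Gbe1 at 669 and Ppp1r3b at 7351. Libraries that stood apart (liver WT 1 and WT 3, eWAT WT 4, IR 4A 3 and IR 4A 4) weigh most in this measure, and the ranks are a description.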

How the data were processed

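Messenger RNA from 20 libraries was enriched for poly-A and read as paired ends on 1 platform after a joint preparation, per the labels' protocols. The authors deposited estimated counts, already whole numbers. Per the submitters' processing notes the tools were Salmon 1.8.0 and DESeq2 1.32.0, with GRCm39 as the build. The authors' DESeq2 results hold, per the file headers, the mean signal of a gene over libraries on the scale of size-factor-divided counts, the log2 fold change and its SE, and the raw and adjusted p-value. The deposited normalized tables were not used here.

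Repeated Ensembl identifiers were dropped (83 in liver, 208 in eWAT). Genes were kept by filterByExpr (minimum count 10, minimum total 15), which left 12421 in liver, 16476 in eWAT and 14696 for comparisons across tissues, and all 9 members passed in each. Scaling was TMM, separately for each tissue or jointly across tissues. Tests were edgeR 4.0.16 quasi-likelihood tests in R 4.3.3, two-sided, with Benjamini-Hochberg adjustment over all tested genes and a threshold of 0.05. Spread between libraries, as edgeR's common coefficient of variation, was 0.187 for liver and 0.512 for eWAT. Levels per length used the longest protein-coding transcript of GENCODE M21, a GRCm38 annotation, while the authors used GRCm39. The test was also run on counts simulated with the spread of these data but without outlying libraries. That run cannot show how the test treats such libraries.

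No library duplicated another (lowest chi-square per degree of freedom 12.5 within a group). The members and lists were chosen with earlier results of these data known. Named genes were all 9 members, the 6 other glycogen genes with the smallest p in each tissue, Pygb, Pygm and Gyg for their role, and the 3 genes most like Gys2 in liver and Gys1 in eWAT. Slc37a4, G6pc3, Ppp1r3e, Ppp1r3g and the single macrophage and matrix markers (Cd68, Col1a1 and Pdgfra) were named after their values were seen. Some genes that these rules select are not reported here. The alternatives tried were upper-quartile or RLE scaling, a filter of 1 CPM in 5 libraries or none, DESeq2 1.42.0, voom of limma 3.58.1, all 20 libraries in 1 fit, a replicate block, an adjusted p of 0.1 and the omission of libraries. The marker covariates and the omission of eWAT libraries by marker level were chosen after seeing the data.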

Additional observations from a re-analysis of the deposited data

Results flagged for a closer look

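In the WT eWAT group, replicate 4 lay far from the other 4 libraries for Gbe1, at 88.7 CPM against a next highest value of 47.9 CPM, a gap that took up 0.742 of the group's range. The same library lay apart for Ppp1r3c, at 53.8 CPM against 25.3 CPM, with 0.749 of the range, where 0.71 is the critical value for 5 libraries. These were 2 of 36 combinations of gene and group examined, and chance sets apart about 1 in 20 groups. WT 4 also had the highest adipocyte marker sum of the 10 eWAT libraries (17030 CPM), the highest macrophage and matrix sums (776 and 6667 CPM) and the lowest epididymis marker sum (4711 CPM), and their part in the 2 values was not tested. Without it the IR 4A difference was -0.31 for Gbe1 and -0.56 for Ppp1r3c on the log2 scale.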

How the results depend on the processing

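With DESeq2, 1 member passed in liver (Gbe1) and 1 in eWAT (Ppp1r3b). No other alternative moved a count of members past the threshold by over 1.5 times. When each library was left out in turn, 0 members passed in liver, eWAT and the comparison of effects, and 7 to 8 between WT tissues. Some log2 differences changed sign. In liver Stbd1 was -0.0089 without a filter, -0.0022 with voom and -0.086 to 0.10 over single omissions, Pygl was -0.027 without WT 1 and WT 3, and with the acute phase covariate Pygl was -0.072 and Ugp2 -0.052. In eWAT Gys2 ran from -1.14 to 0.24 over single omissions. The adipocyte covariate gave Gys1 0.28, Gys2 0.65, Gbe1 0.027, Pygl 0.17 and Ugp2 0.070. Ugp2 was 0.026 without the 4 libraries high in sperm markers, and Gys1 was 0.060 and Gys2 0.45 without the 2 high in hepatocyte markers. The difference between tissues for Ppp1r3b was -0.030 with voom, and the WT tissue difference of Phka2 ran from -0.028 to 0.45 over single omissions. The cause was not tested.

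Same-numbered deviations correlated at -0.0723 to 0.077 between liver genotypes and -0.726 to 0.67 between eWAT genotypes. In liver, 1 of 5 WT and 0 of 5 IR 4A libraries fitted best with their own number. WT and IR 4A libraries come from different mice, so these values cannot show a shared animal. Between liver and eWAT the same-numbered correlations were -0.0857 to 0.034 in WT and -0.164 to 0.0694 in IR 4A. Low correlations across tissues do not exclude a shared animal. Whether liver and eWAT libraries with the same number came from the same mouse is not known. With the replicate block the count of members past the threshold was 0 within each tissue, 0 for the contrast of effects and 7 between WT tissues, as without it. Counts were lowest for Gys1 in liver (25 to 88 per library) and Gys2 in eWAT (8 to 208).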
